A study of Mus musculus with 2 samples.

Results

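Thick ascending limb cells were taken from a droplet single-cell RNA-seq experiment on kidneys of female mice after rhabdomyolysis, the breakdown of skeletal muscle whose released myoglobin injures the tubule. The members were chosen by measured values. A barcode needed at least 300 detected genes and at most 80% of its UMIs (unique molecular identifiers, 1 per captured transcript) from genes named mt-, which lie on the mitochondrial genome. Per 10000 UMIs of all other genes, the non-mt UMIs, it also needed Slc12a1 of at least 5 with at least 2 Slc12a1 UMIs, a sum of Slc34a1 and Lrp2 below 25 and Slc12a3 below 5. The rule kept 139 of the 3534 barcodes that passed the cell filter, out of 3691 in the whole series. Of these, 80 came from the vehicle library and 59 from the CA3 library.

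Both groups were C57Bl/6 mice 9 weeks old with the alleles Pax8.rtTA, TetO.Cre and R26.FUCCI2aR, and both had rhabdomyolysis, so no uninjured kidney entered the comparison. In this system the Pax8 promoter drives the tetracycline-dependent activator in tubule epithelium, and the activator drives Cre, which opens the R26 reporter. 1 group then received vehicle and the other CA3, which is described as a small-molecule blocker of the transcriptional coactivator YAP1. Each group was 1 library. The sources used here give neither the number of animals behind a library nor the dose or the time of collection.

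The thick ascending limb reabsorbs sodium, potassium and chloride from the tubule fluid without water and so dilutes the urine. Its luminal transporter Slc12a1 (NKCC2, the target of loop diuretics) works with the potassium channel Kcnj1 (ROMK), the chloride channel subunit Bsnd, the basolateral potassium channel subunit Kcnj16 and the sodium pump subunits Atp1b1 and Fxyd2. The positive voltage this creates in the lumen pulls cations between the cells, through claudin-10 for sodium and through claudin-16 and claudin-19 for calcium and magnesium. The cells are packed with mitochondria, and they secrete uromodulin (Umod), the most abundant protein of normal urine.

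The stretches before the start sites of 4 genes are printed. Slc12a1 (chr2:125152350-125152599, plus strand), Umod (chr7:119479263-119479512, minus strand) and the first of the 2 listed starts of Cldn10 (chr14:118787621-118787870, plus strand) are shown because these genes were expressed together here. The first listed start of Kcnj16 (chr11:110967783-110968032, plus strand) is shown because it held the motif searched. They come from RefSeq on GRCm38.p6, the assembly called mm10 in the files' processing, and each is the 250 bases before the start, read 5′ to 3′. Capitals mark AAGGTCA, the site of estrogen-related receptors such as Esrrg, on either strand (TGACCTT on the other strand).
Slc12a1: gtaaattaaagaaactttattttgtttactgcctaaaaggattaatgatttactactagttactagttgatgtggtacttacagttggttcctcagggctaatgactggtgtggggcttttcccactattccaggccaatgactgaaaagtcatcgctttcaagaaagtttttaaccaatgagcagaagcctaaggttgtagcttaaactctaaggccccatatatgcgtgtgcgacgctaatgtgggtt
Umod: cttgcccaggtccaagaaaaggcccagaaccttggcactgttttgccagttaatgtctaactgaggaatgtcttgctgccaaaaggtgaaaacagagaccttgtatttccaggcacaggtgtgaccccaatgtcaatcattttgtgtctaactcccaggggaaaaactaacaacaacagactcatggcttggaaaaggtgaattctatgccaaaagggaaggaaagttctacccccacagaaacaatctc
Cldn10: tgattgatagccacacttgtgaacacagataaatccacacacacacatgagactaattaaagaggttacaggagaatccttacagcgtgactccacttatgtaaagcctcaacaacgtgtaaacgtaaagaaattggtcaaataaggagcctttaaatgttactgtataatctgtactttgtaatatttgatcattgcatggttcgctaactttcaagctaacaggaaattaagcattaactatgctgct
Kcnj16: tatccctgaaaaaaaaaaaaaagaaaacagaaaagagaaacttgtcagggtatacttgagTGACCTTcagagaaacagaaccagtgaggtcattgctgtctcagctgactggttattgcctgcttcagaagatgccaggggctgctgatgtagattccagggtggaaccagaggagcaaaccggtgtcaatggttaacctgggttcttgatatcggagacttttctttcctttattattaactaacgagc
Of the 73 thick ascending limb genes listed for this work, 57 had a RefSeq entry, with 89 start sites. AAGGTCA lay before 1 of these starts (1.12%), that of Kcnj16, and before 4.08% of all 32851 starts in the table. A match is only a description of the letters.

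The libraries held 1967 and 1724 barcodes with a median of 7307 UMIs in vehicle and 7278 in CA3. They shared 1 barcode sequence, which was no member. The members held 874952 non-mt UMIs in vehicle and 553388 in CA3. A member had a median of 9860 UMIs in vehicle (3807 to 74966) and 9262 in CA3 (3506 to 67989). Members were 4.20% of filtered vehicle barcodes (exact 95% interval 3.35% to 5.21%) and 3.62% of filtered CA3 barcodes (2.76% to 4.64%). The ratio of the shares, CA3 over vehicle, was 0.860, with a counting interval of 0.604 to 1.22 that includes 1. Proximal tubule cells were taken as filtered barcodes with Slc34a1 and Lrp2 summing to at least 25 and with Slc12a1 and Slc12a3 each below 5. Among the other filtered barcodes the members' shares were 16.8% of 476 and 12.7% of 465. These others include barcodes with Slc34a1 and Lrp2 of at least 25 that also had Slc12a1 or Slc12a3 of at least 5. All intervals here cover counting error only, and with 1 library per group no test of CA3 against vehicle was possible.

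The label held against its markers. Umod had a UMI in 78 of 80 vehicle members and in 59 of 59 CA3 members. Its level per cell ran from 0 over a median of 249 to 734 UMIs per 10000 in vehicle and from 1.58 over 227 to 580 in CA3. In proximal tubule cells Umod had a UMI in 24.6% and 25% of cells, at a summed level of 0.475 and 0.469 per 10000, with median depths of 5461 and 5703 non-mt UMIs against 7756 and 6100 in members. Egf, the precursor of epidermal growth factor, had a UMI in 74 and 56 members, with median levels of 62.1 in vehicle and 61.1 in CA3. Cldn19 was seen in 61 and 46 members, Cldn16 in 44 and 31, Cldn10 in 59 and 41 and Kcnj1 in 71 and 50. The 5 macula densa markers summed to 0.171 and 0.217 per 10000 and Nos1 and Ptgs2 were at 0 UMIs in CA3 and Pappa2 in vehicle. Members held 72.5% of all Umod UMIs of the vehicle library and 83.2% of those of the CA3 library.

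**Figure D1:**
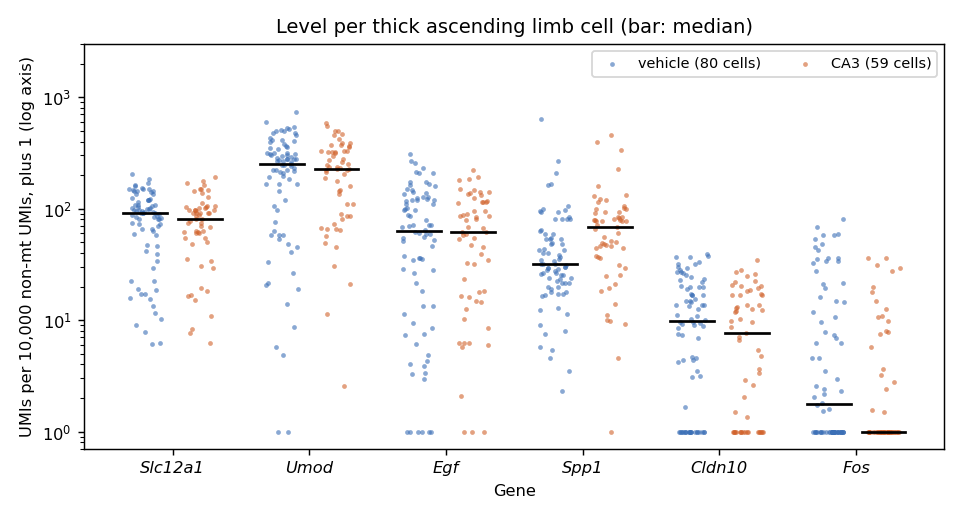
Level of 6 genes in each thick ascending limb cell, as UMIs per 10000 non-mt UMIs plus 1 on a log axis, for 80 vehicle and 59 CA3 cells, with black bars at the medians. The 2 libraries overlap for every gene shown, and the median of Spp1 is 30.6 in vehicle and 67.9 in CA3.

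The choice of members gave a wide range of Slc12a1, from 5.15 over a median of 89.5 to 204 per 10000 in vehicle and from 5.17 over 79.6 to 192 in CA3. Just inside the limit, at 5 to 10 per 10000, lay 5 vehicle and 4 CA3 members, with summed Umod of 71.9 and 44.2 per 10000. Just outside, at 2.5 to 5, lay 4 and 1 barcodes with Umod of 9.47 and 5.25. Of the barcodes that met the Slc12a1 limit, the limit on Slc34a1 and Lrp2 removed 24 in vehicle and 4 in CA3, and the limit on Slc12a3 alone removed 3 and 1. The wide mitochondrial limit added few members: 11 vehicle and 8 CA3 members were above 50%. Among the barcodes above 80%, only 1 in vehicle and 2 in CA3 met the rest of the rule.

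Some members also carried RNA of another cell class, at 3 or more UMIs and at least 10 per 10000 of that class's defining markers, or at least 25 for proximal tubule markers. This held for 18 of 80 vehicle members and 15 of 59 CA3 members. They held 35.9% and 39.0% of the non-mt UMIs, since they were deep, with medians of 19978 and 10873 UMIs against 8735 and 7917 in the others. The classes were proximal tubule (11 and 5 cells), endothelium (6 and 4), principal cell (2 and 3), intercalated cell (2 and 1), mononuclear phagocyte (2 and 2), lymphocyte (0 and 3) and stroma (2 and 0). No doublet caller was run. Some results below are given with and without these cells, and the others include them. The filter did not use thin limb or distal convoluted tubule markers. The 5 thin limb markers together had 3 or more UMIs in 31 vehicle and 8 CA3 members. Such members were kept unless they also carried RNA of a class in the filter.

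The median share of mt- UMIs was 30.2% in vehicle members (0.182% to 72.8%) and 25.2% in CA3 members (1.46% to 69.6%). Distal convoluted tubule cells, taken by the same rule with Slc12a3 in the place of Slc12a1, had medians of 38.6% and 45.3%, proximal tubule cells 19.8% and 21.3% and lymphocytes 5.95% and 4.75%. Above 50% lay 13.8% and 13.6% of members, against 35.8% and 40.3% of distal convoluted tubule cells and 6.10% and 6.26% of proximal tubule cells. In both libraries the thick ascending limb lay between its neighbour and the proximal tubule. These shares also set which barcodes the mitochondrial limit kept, and no test was made of them.

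Members were split by Cldn10, since claudin-10 and claudin-16 are known to mark different cells of the limb. A Cldn10 UMI was present in 59 vehicle and 41 CA3 members, and 21 and 18 had none. A UMI of Cldn10 together with one of Cldn16 or Cldn19 was seen in 49 and 37 members, Cldn10 alone in 10 and 4, Cldn16 or Cldn19 alone in 17 and 13, and none of these in 4 and 5. The split was chosen after the values were seen. UMIs were summed over each of these cell groups in each library, and the sums were compared with edgeR's quasi-likelihood test with library as a block, so the 2 libraries are the replicates and Cldn10 and the gate genes are left out. Of 5294 genes tested, 65 were higher (1.23%) and 47 lower (0.888%) with Cldn10 at an adjusted p below 0.05, together 2.12% of those tested. The p-values measure only how far the difference between the cell groups varied between these 2 libraries, which differ in treatment. Members without a Cldn10 UMI were shallower, with medians of 3974 and 4214 non-mt UMIs against 8718 and 7592. With cells of at least 3000 non-mt UMIs only, 5 genes were higher and 8 lower. A set of 6 genes, singled out after their values were seen, was called in the same direction in all 5 fits tried: Ptger3, Clu and Eprn higher with Cldn10, and Tmem52b, Foxq1 and Wnk1 lower.

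Ptger3 encodes the prostaglandin E2 receptor EP3, which restrains salt uptake in the medullary part of the limb. Its summed level with Cldn10 was 4.31 per 10000 in vehicle and 4.20 in CA3, and without Cldn10 it was 0.478 and 0.173. The log2 difference was 3.63 ± 0.39 (SE, edgeR adjusted p = 2.72e-17). Clu, the secreted chaperone clusterin, was at 8.85 and 11.1 with Cldn10 and at 1.30 and 2.16 without (log2 difference 2.54 ± 0.27, edgeR adjusted p = 5.31e-18). Both genes were higher with Cldn10 in each library.

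On the other side stood Tmem52b, a membrane protein gene, at 20.2 and 17.5 per 10000 in members without Cldn10 and at 3.13 and 3.15 with it (log2 difference -2.59 ± 0.22, edgeR adjusted p = 6.48e-29). Foxq1, a forkhead transcription factor, was at 2.73 and 2.77 without Cldn10 and at 0.165 and 0.343 with it (log2 difference -3.53 ± 0.39, edgeR adjusted p = 2.76e-16). Wnk1, a kinase that acts on the chloride cotransporters of the distal nephron, was at 17.6 and 15.7 without and at 4.32 and 4.57 with it (log2 difference -1.92 ± 0.21, edgeR adjusted p = 2.76e-16). Each of the 3 genes was lower with Cldn10 in both libraries.

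Pth1r and Cldn16, which act in calcium and magnesium transport, were higher in the members that lacked Cldn10. Pth1r, the receptor of parathyroid hormone, was at 5.87 and 5.36 without Cldn10 and at 1.26 and 2.49 with it (log2 difference -1.68 ± 0.26, edgeR adjusted p = 6.32e-08). Cldn16 was at 3.62 and 2.42 without and at 0.947 and 0.891 with it (log2 difference -1.73 ± 0.32, edgeR adjusted p = 8.94e-06). In cells of at least 3000 non-mt UMIs the adjusted p of edgeR was 0.0758 for Pth1r and 0.0863 for Cldn16, and without the block it was 0.0891 for Pth1r. Cldn19 did not pass the test (log2 difference 0.45 ± 0.30, edgeR adjusted p = 0.863). Fxyd2 was higher with Cldn10, at 62.4 and 45.8 per 10000 against 31.2 and 29.2 (log2 difference 0.81 ± 0.19, edgeR adjusted p = 0.00135), and Kcnj1 did not pass (edgeR adjusted p = 0.989). The edgeR adjusted p of Fxyd2 was 0.152 in cells of at least 3000 non-mt UMIs, 0.221 without the block and 0.76 without cells carrying RNA of another class. Of the listed genes tested, 3 of 11 for transport, 2 of 16 regulators, 1 of 9 secreted and 2 of 14 transcription factors (Irx1 and Irx2) were higher with Cldn10. Lower were 2 of 6 paracellular genes, 2 regulators and 1 secreted gene, Egf. Of these listed genes, Ptger3 and Wnk1 were the ones called in all 5 fits.

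Markers of other classes moved with this split as well. Atp6v1g3, Atp6v0d2 and Slc26a4 of intercalated cells passed as lower with Cldn10. Atp6v1g3 without Cldn10 was at 26.4 per 10000 in CA3 and at 0 in vehicle, against 0.343 and 1.07 with it. Slc26a4 without Cldn10 was at 5.36 in CA3 and at 0 in vehicle, against 0.434 and 0.124 with it. So in vehicle both went the other way. The 1 deep CA3 member that held most of the intercalated marker UMIs of the CA3 members had no Cldn10 UMI. Among the largest differences, Ccl5 and Cd74 are immune genes, Pck1 a proximal tubule gene and Scnn1b a principal cell gene, all higher with Cldn10. 4 of 6 principal cell markers tested, and 3 of 5 proximal tubule markers, were higher with Cldn10. Without the members that carried RNA of another class, 18 genes were higher and 18 lower. The part of this RNA in the other calls was not tested beyond that.

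**Figure D2:**
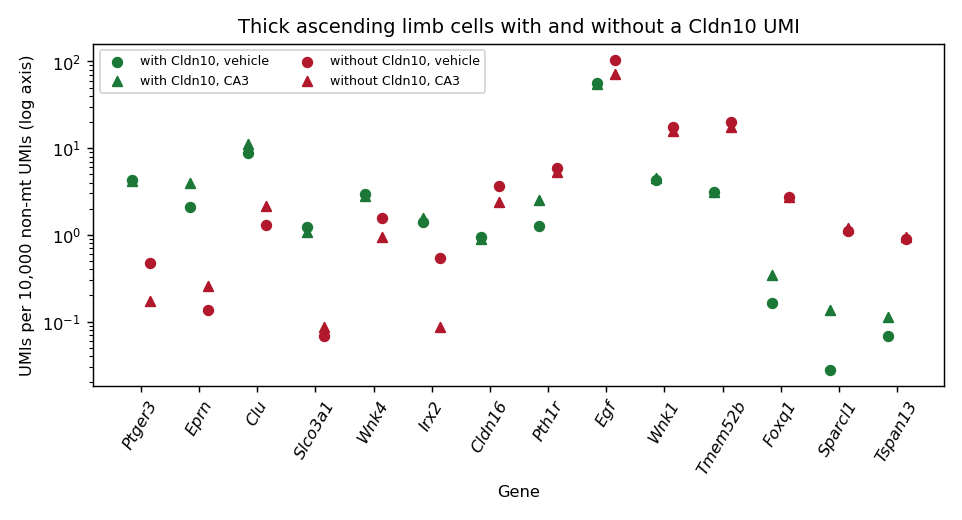
Summed level of 14 genes, as UMIs per 10000 non-mt UMIs on a log axis, in thick ascending limb cells with (green) and without (red) a Cldn10 UMI, with circles for vehicle and triangles for CA3. Ptger3 lies at 4.31 and 4.20 with Cldn10 and at 0.478 and 0.173 without, and Tmem52b, Foxq1 and Wnk1 lie the other way in both libraries.

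Against the distal convoluted tubule, the next segment, the members differed widely. There were 53 vehicle and 62 CA3 cells of that segment. The summed UMIs were tested with edgeR as above, without the genes of the 2 rules and without mt- genes. Of 7332 genes, 433 were higher in the thick ascending limb (5.91%) and 316 lower (4.31%), together 10.2%. In all 7 fits tried, 52 genes were higher and 64 lower.

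Among the genes with the largest differences, the transcription factor Irx2 had 179 UMIs in members and 0 in distal convoluted tubule cells, at least 37.0-fold higher when 0 is set at a floor of 3 UMIs over the group. Irx1, of the same family, was at least 27.9-fold higher. Slc5a1, the sodium and glucose cotransporter SGLT1, had 2.09 and 3.16 UMIs per 10000 in members and 0 UMIs in the other segment, at least 74.0-fold higher. Egfl6 was at least 48.8-fold higher, Vim at least 21.1-fold, Sim2 at least 19.8-fold and Myef2 at least 15.5-fold. Plau, the urokinase plasminogen activator, was at 3.42 and 2.82 against 0.0191 and 0.0554 per 10000 (log2 difference 6.34 ± 0.37, edgeR adjusted p = 7.62e-09). Eprn and Tmem207 completed the 10 genes. With DESeq2 the adjusted p was 0.519 for Slc5a1, 0.681 for Egfl6, 0.886 for Irx1 and 1.0 for Vim, Sim2 and Myef2, so 6 of the 7 genes at 0 in the other segment were not called there.

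Lower in the members were the calcium-binding proteins Pvalb (0.0457 and 0.0361 against 7.21 and 5.40 per 10000) and Calb1 (2.64 and 1.68 against 84.4 and 63.9), and the magnesium channel Trpm6 (0.0686 and 0.0361 against 3.15 and 2.49). Their log2 differences were -7.32 ± 0.27, -5.23 ± 0.16 and -5.77 ± 0.31, with edgeR adjusted p of 3.77e-11, 5.98e-12 and 2.74e-09. The transcription factors Lhx1, Sall3 and Emx1, the muscle-type glycolytic enzyme Pgam2, leukotriene C4 synthase Ltc4s, Cyp2j11 and Lhx1os, the antisense partner of Lhx1, were the others. Whether strand was used in the counting is not stated, so reads of Lhx1os and Lhx1 may not be told apart.

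The transport machinery was shared and was mostly more abundant in the neighbour. Of 13 transport genes tested, 3 were higher in the thick ascending limb and 7 lower. Slc9a3, the sodium-proton exchanger NHE3, was at 1.52 and 1.21 per 10000 against 0.0381 and 0.0277 (log2 difference 5.16 ± 0.44, edgeR adjusted p = 6.97e-07). Lower were Fxyd2 (57.2 and 42.3 against 95.4 and 114 per 10000), Kcnj1 (6.07 and 5.71 against 10.7 and 8.53) and Kcnj16 (3.55 and 3.42 against 5.38 and 4.13). For Kcnj1 the log2 difference was -0.82 ± 0.13 (edgeR adjusted p = 0.000565), and for Kcnj16 it was -0.57 ± 0.15 (edgeR adjusted p = 0.0193). With DESeq2 the adjusted p was 0.0585 for Kcnj1. For Kcnj16 the edgeR adjusted p was 0.16 at a mitochondrial limit of 50% and 0.0622 without the block, and with DESeq2 its adjusted p was 1.0.

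Of 11 paracellular genes, the 3 claudins of the limb were higher and Cldn8 lower. Cldn10 was at 11.1 and 9.49 against 0.0953 and 0.194 per 10000 (log2 difference 6.11 ± 0.25, edgeR adjusted p = 1.03e-10), and Cldn19 was at 2.46 and 2.40 against 0.0763 and 0 (log2 difference 5.58 ± 0.42, edgeR adjusted p = 1.63e-07). Of 17 regulators 5 were higher, among them Ptger3 (log2 difference 3.71 ± 0.24) and the calcium-sensing receptor Casr (1.90 ± 0.41, DESeq2 adjusted p = 0.545), and 4 were lower, among them Wnk1, Wnk4 and Pth1r. Of 9 secreted genes 6 were higher. Umod was at 212 and 213 against 59.4 and 28.4 (log2 difference 2.25 ± 0.21, edgeR adjusted p = 1.81e-06) and Egf at 64.9 and 58.5 against 32.8 and 15.9 (log2 difference 1.30 ± 0.18, edgeR adjusted p = 0.000119, and 0.134 with DESeq2). Defb1, a beta-defensin, was the secreted gene that was lower, at 6.67 and 5.57 against 64.0 and 45.4.

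Of 16 transcription factors 5 were higher: Pax8, Ppargc1a, Irx1, Irx2 and Irx3, the last with an adjusted p of 1.0 in DESeq2. All 23 nuclear genes of the respiratory chain had a difference below 0, and 7 of them passed the test as lower. Their median log2 difference was -0.31, against -0.004 over all genes tested. Of the 7, Ndufa1 and Uqcrq were called in all 7 fits. With DESeq2 the adjusted p was 0.597 for Ndufa4, 0.483 for Cycs, 0.425 for Cox7a2, 0.154 for Cox6c and 0.826 for Ndufa2. Without cells carrying RNA of another class the edgeR adjusted p was 0.152 for Ndufa4, 0.0959 for Cycs, 0.0687 for Cox7a2 and 0.106 for Cox6c. Of 17 immediate early genes tested 10 were higher in the members, among them Atf3 (4.17 and 1.39 against 0.324 and 0.194 per 10000), and 2 were lower, Cyr61 and Ier3, named for being the 2 that were. Markers of other classes were higher in the members too: 4 of 7 proximal tubule, 3 of 6 principal, 2 of 2 thin limb and 2 of 2 intercalated markers tested passed as higher. Their part in the differences was not tested beyond leaving out the cells that carried them, and thin limb markers were not used for that. Without cells carrying RNA of another class 441 genes were higher and 356 lower.

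**Figure D3:**
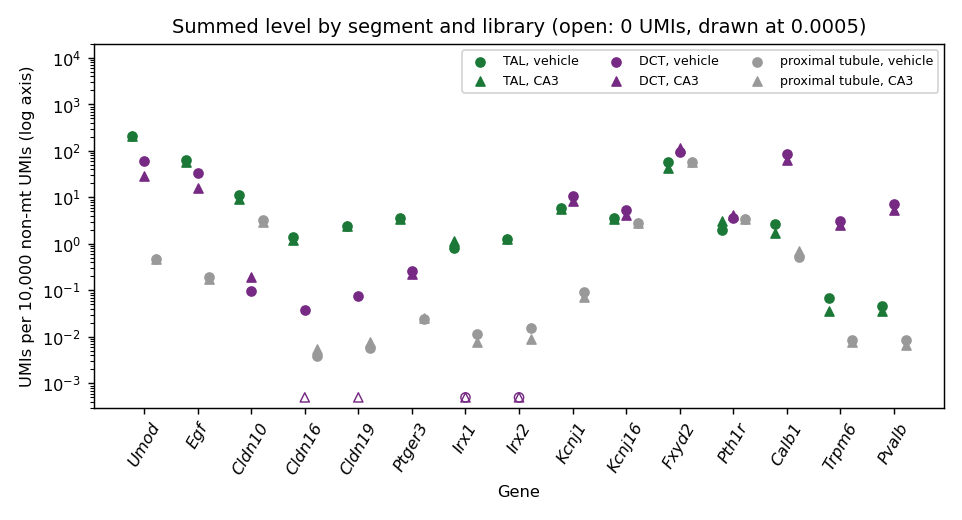
Summed level of 15 genes, as UMIs per 10000 non-mt UMIs on a log axis, in thick ascending limb (TAL), distal convoluted tubule (DCT) and proximal tubule cells, with circles for vehicle and triangles for CA3 and open symbols for 0 UMIs. Umod, Egf, the 3 claudins, Ptger3, Irx1 and Irx2 are higher in the thick ascending limb than in the distal convoluted tubule, while Calb1, Trpm6 and Pvalb are lower.

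Members with a high mitochondrial share had few transcripts of immediate early genes. The immediate early genes, transcription factors and regulators that switch on within minutes of a stimulus such as tissue handling or injury, summed to 96.5 per 10000 in vehicle members at or below 50% mt- UMIs and to 8.76 in those above. In CA3 members the sums were 58.3 and 5.24. Fos was at 19.1 against 1.35 in vehicle and at 8.46 against 0 in CA3 (log2 difference -4.21 ± 0.53, edgeR adjusted p = 1.07e-11). Jun was at 16.1 against 1.12 and at 14.2 against 0.655 (log2 difference -4.14 ± 0.52, edgeR adjusted p = 7.05e-12). In each library both genes were lower above 50%. Other stress lists differed less: heat shock genes summed to 45.4 above 50% against 61.3 in vehicle and to 55.0 against 57.8 in CA3, genes of the unfolded protein and integrated stress responses to 40.2 against 39.5 and to 32.1 against 39.99, and genes of oxidative stress and haem to 138 against 122 and to 158 against 131.

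Across 5118 genes, edgeR called 1 higher (0.0195%) and 25 lower (0.488%) above 50%, together 0.508%. Of 15 immediate early genes tested, 10 were lower and none higher. Fosb, Egr1, Zfp36 and Ier2 had 0 UMIs above 50%, at least 13.3-fold, 13.8-fold, 7.60-fold and 4.29-fold lower at the floor of 3 UMIs over the group. Klf2, Ppp1r15a and the heat shock gene Hspa1b were at least 3.86-fold, 4.70-fold and 3.48-fold lower, and Junb had 1 UMI above 50% against 589 below in vehicle and 0 against 230 in CA3. The remaining 2 genes of the rule were markers of other classes, Aqp2 and Atp6v1g3, both with 0 UMIs above 50%. Malat1, Neat1 and Xist, 3 RNAs kept in the nucleus, were lower as well. With DESeq2 only 3 genes, Fos, Jun and Xist, were called lower. The gene that was higher was Lars2, the leucyl-tRNA synthetase of mitochondria, at 24.3 against 7.38 in vehicle and at 28.8 against 9.55 in CA3 (log2 difference 1.41 ± 0.34, edgeR adjusted p = 0.00953).

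None of the listed thick ascending limb genes passed this test in either direction: of 12 for transport, 8 paracellular, 15 regulators, 9 secreted and 13 transcription factors. The sums of the lists went different ways. The paracellular genes summed to 27.4 above 50% against 20.7 at or below it in vehicle and to 13.1 against 18.4 in CA3, and the transcription factors to 18.4 against 23.9 in vehicle and to 17.0 against 22.7 in CA3. The regulators summed to 36.4 against 31.2 and to 32.7 against 29.5, and the secreted genes to 625 against 386 and to 495 against 425. The transport genes summed to 369 against 274 per 10000 in vehicle and to 380 against 245 in CA3, Umod was at 387 against 202 and at 263 against 212, and the respiratory chain genes of the nucleus summed to 471 against 322 and to 528 against 305. The high group held only 11 and 8 cells with 44499 and 15274 non-mt UMIs, and its cells were shallower, with medians of 3559 and 1707 non-mt UMIs against 8414 and 6800. With the split at 60% no gene was called, and none was at an unadjusted p below 0.05. The vehicle sum above 60% was that of 1 member, at 72.8% mt- UMIs with 1554 non-mt UMIs and 0 Umod UMIs. Across cells, Spearman's rho of the mt- share with the level of Umod was 0.41 over 80 vehicle cells and 0.47 over 59 CA3 cells, and with that of Fos it was -0.55 and -0.39. These cells share a library and differ in depth, so the values are descriptions.

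Malat1, an RNA retained in the nucleus, split the members into a high and a low set. A limit of 100 per 10000, chosen after the values were seen, put 34 of 80 vehicle members (42.5%) and 23 of 59 CA3 members (39.0%) in the low set. Only 6 and 5 cells lay between 50 and 200. The medians of Malat1 were 15.1 and 13.8 in the low sets and 708 and 785 in the high sets. Low members were shallower, with medians of 6142 and 5923 UMIs against 17933 and 11621. Of members above 50% mt- UMIs, 9 of 11 and 6 of 8 were in the low set, against 11 of 40 and 9 of 32 of those at or below 30%.

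The other nuclear RNAs followed Malat1. Neat1 was at 0.930 and 0.292 per 10000 in the low sets and at 20.8 and 22.8 in the high sets, and Xist at 0.0581 and 0.195 against 11 and 13.4. The immediate early genes summed to 15.8 and 6.63 in the low sets and to 111 and 68.3 in the high sets. Umod stayed high in the low sets, at 257 and 246 against 201 and 206, and the respiratory chain genes of the nucleus summed to 478 and 504 against 293 and 268. The low set was not particular to this segment: it held 34.0% and 48.4% of distal convoluted tubule cells and 59.6% and 61.7% of proximal tubule cells. Within the low set no gene was called between members above and at or below 50% mt- UMIs (edgeR, 1043 genes, 39 at an unadjusted p below 0.05).

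**Figure D4:**
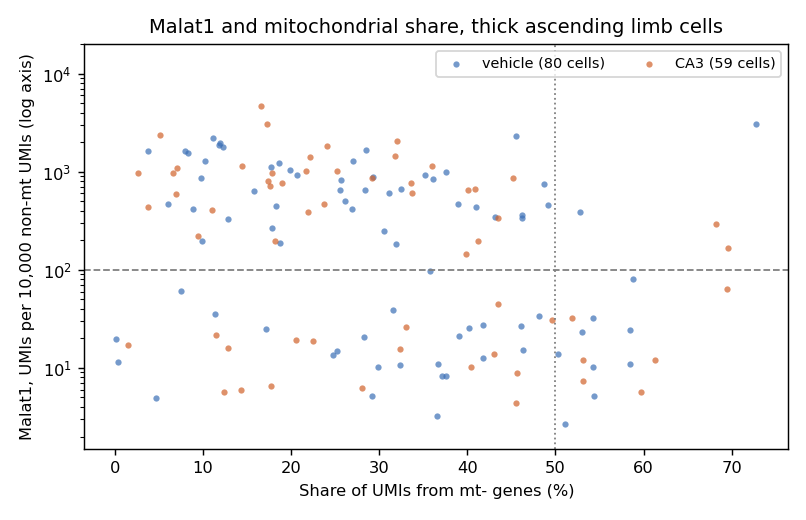
Malat1, as UMIs per 10000 non-mt UMIs on a log axis, against the share of UMIs from mt- genes in percent, 1 point per thick ascending limb cell (80 vehicle, 59 CA3), with lines at 100 per 10000 and at 50%. Cells fall into a band above and a band below the horizontal line, and 9 of 11 vehicle and 6 of 8 CA3 cells right of the vertical line lie in the lower band.

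CA3 against vehicle was described from the summed UMIs of each library, as a ratio with the exact counting interval. Of 8181 genes with at least 20 UMIs, 755 were at least 1.5 times higher in CA3 (9.23%) and 1046 at least 1.5 times lower (12.8%), and the median log2 ratio was -0.04. Either way past 1.5 times with an interval that excludes 1 were 8.42%, and of the 2595 genes with at least 100 UMIs 8.86% were past 1.5 times either way. The counts of gene lists below are read against these shares. RNA of other classes differed between the libraries' members as well: the 5 intercalated markers summed to 1.65 per 10000 in vehicle and 9.04 in CA3, with 4 of 4 measured higher and Slc4a1 at 0 in both. Most of the CA3 sum came from 1 deep member of 45403 UMIs, in which these markers were at 117 per 10000. The median CA3 member was at 0. The 5 phagocyte markers summed to 2.88 and 3.78, the 5 endothelial markers to 3.74 and 4.66, the 10 proximal tubule markers to 14.2 and 12.1 and the 6 principal cell markers to 14.5 and 13.1. Beyond leaving out the cells that carried these markers, their part in the ratios was not tested.

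Most transport genes, 12 of 16, were within 1.5 times of vehicle. A ratio below 1 was seen in 12 of 16, against 4409 of the 8181 genes measured. Past 1.5 times, 1 was higher and 3 lower, and the median log2 ratio was -0.28 against -0.04 over all genes. Slc12a1, which chose the members, was at 80.5 in vehicle and 70.8 per 10000 in CA3. The sodium pump subunits had ratios of 0.819 for Atp1b1 (interval 0.782 to 0.859) and 0.740 for Fxyd2 (0.704 to 0.777). Slc4a4, a sodium bicarbonate cotransporter, had a ratio of 0.601, and Kcnt1 had 18 and 4 UMIs. Kcnj1 had a ratio of 0.941, Kcnj16 of 0.961 and Bsnd of 1.30, all with intervals that include 1.

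Of 11 paracellular genes 1 was higher and 3 lower. Cldn10, Cldn16 and Cldn19 had ratios of 0.858, 0.868 and 0.978. The genes past 1.5 times were F11r, with a ratio of 1.58 and an interval that includes 1, and the tight junction genes Cldn4 (29 and 3 UMIs, 0.164, 0.0319 to 0.528), Tjp1 (0.506) and Ocln (0.605). Of 18 regulators 1 was higher and 1 lower: Pth1r was at 2.03 and 3.09 (ratio 1.52, 1.22 to 1.88) and the vasopressin receptor Avpr2 had 30 and 9 UMIs. Casr had a ratio of 0.711 and Ptger3 of 0.916, both with intervals that include 1.

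Of 9 secreted genes none was higher and 1 lower. Umod was at 212 and 213 per 10000 (ratio 1.01, 0.985 to 1.03) and Egf at 64.9 and 58.5 (ratio 0.902, 0.863 to 0.942). Apela, an endogenous peptide of the apelin receptor, was at 1.93 and 0.813 (ratio 0.421, 0.296 to 0.588). Spp1, the secreted phosphoprotein osteopontin, was at 71.2 and 101 (ratio 1.42, 1.37 to 1.48), below the 1.5 limit. Its median over cells was 30.6 in vehicle and 67.9 in CA3. The ratio of Spp1 was uneven over the cells: 0.845 in members at or below 30% mt- UMIs, 4.65 at 30 to 50% and 0.849 above 50%, and 2.18 without the 3 deepest cells of each library. However, 1 vehicle member at 9.87% mt- UMIs held 2174 of the 6233 vehicle Spp1 UMIs. Likewise 1 CA3 member at 40.1% held 1450 of 5609. The ratios by mt- share lean on these cells, and a dependence on mt- share was not tested. Of 15 transcription factors none was higher and 1 lower, Pax2, at 0.914 and 0.271 (ratio 0.296, 0.159 to 0.519). Pax8, whose promoter drives the transgene, was at 1.53 and 1.03 (ratio 0.673), and Ppargc1a, a coactivator of mitochondrial genes, at 4.46 and 3.11 (ratio 0.697).

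Immediate early genes were lower in CA3 members. Of 17 measured, 12 were at least 1.5 times lower and none higher, with a median log2 ratio of -0.81. Their summed level was 92.0 per 10000 in vehicle and 56.9 in CA3 (ratio 0.618, 0.593 to 0.644). Fos was at 18.2 and 8.22 (ratio 0.452), Fosb at 8.08 and 3.69 (0.456), Atf3 at 4.17 and 1.39 (0.334) and Zfp36, which destabilises inflammatory transcripts, at 4.82 and 1.81 (0.375). The level was uneven over cells: the median member had a sum of 21.9 in vehicle and 11.3 in CA3, and Fos had a UMI in 43 of 80 and 22 of 59 members. Without the members that carried RNA of another class the summed ratio was 0.481, and in the high Malat1 set 0.617. It was 0.550 in members at or below 30% mt- UMIs and 0.861 at 30 to 50%. In distal convoluted tubule cells the list had 3 genes lower and 4 higher of 17 with a summed ratio of 1.09, and in proximal tubule cells 2 lower and none higher of 18 with a summed ratio of 0.936. Jund (1.19), Klf4 (1.04) and Nr4a1 (1.33) were the measured genes with a ratio above 1 in the members, named after their values were seen.

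The heat shock list had 3 of 12 genes lower and none higher. Cryab, the small heat shock protein alpha B-crystallin, was at 3.92 and 0.759 per 10000 (ratio 0.194, 0.137 to 0.267) and was seen in 43 of 80 and 19 of 59 members. Dnajb1 had a ratio of 0.559, Hspb1 of 0.600 and Hspa1b of 0.668. The respiratory chain genes of the nucleus were all within 1.5 times, 23 of 23, with a median log2 ratio of -0.10, as were the 13 genes of the mitochondrial genome. Among the latter, mt-Nd3, a subunit of complex I, took 2.24% of mt- UMIs in vehicle and 3.18% in CA3. This was not particular to the members: its share was 2.24% and 3.51% in distal convoluted tubule cells and 2.03% and 3.07% in proximal tubule cells.

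**Figure D5:**
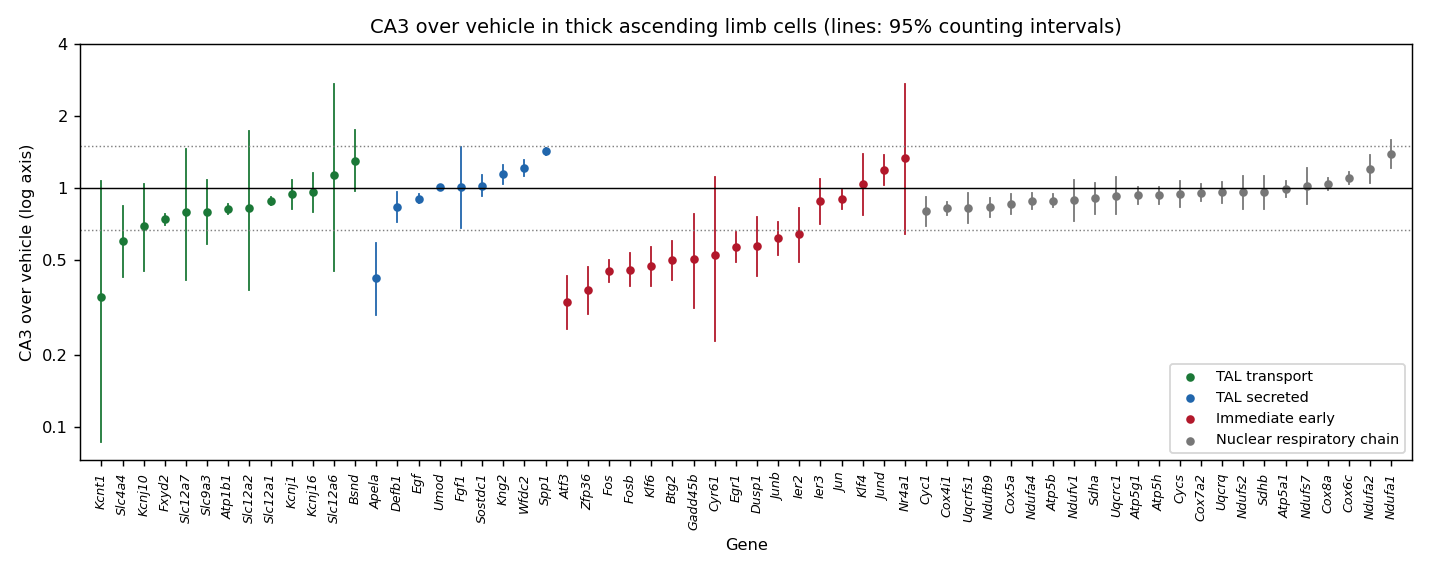
Ratio of the summed level in CA3 over that in vehicle thick ascending limb cells on a log axis, 1 point per listed gene shown, each with at least 20 UMIs, with lines for the 95% counting interval and dotted lines at 1.5 times. The immediate early genes are mostly below 1, with Fos at 0.452, the respiratory chain genes lie within 1.5 times, and Umod lies at 1.01.

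Injury genes went both ways: 4 of 19 were higher and 5 lower. Cdkn1a, the cell cycle inhibitor p21, had 17 UMIs in 8 vehicle members and 38 in 9 CA3 members (ratio 3.53, 1.95 to 6.68), and without members carrying RNA of another class the ratio was 5.22. The 3 members of each library richest in Cdkn1a held 11 of its UMIs in vehicle and 28 in CA3, and without them the ratio was 2.65. In proximal tubule cells the ratio of Cdkn1a was 0.330, and in distal convoluted tubule cells it was 1.12 (0.591 to 2.08). Krt18, a keratin of simple epithelia, had 29 UMIs in 13 members and 55 in 14 (ratio 3.0, 1.88 to 4.88). Vcam1 had 208 UMIs in 7 vehicle members and 1 in CA3. Cd44 had 48 UMIs, all in 1 vehicle member, and 3 in CA3. Lcn2, the secreted injury marker NGAL, named after its value was seen, was at 0.777 and 1.63 (ratio 2.09, 1.51 to 2.91).

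Inflammatory genes were lower in 8 of 11 and higher in none, with a summed ratio of 0.397 (0.331 to 0.474). Cxcl10 had 153 UMIs in 3 vehicle members and 6 UMIs in 1 CA3 member, C3 88 UMIs in 5 and 7 in 1, Cxcl2 32 UMIs in 3 and 1 in 1, and Icam1 37 UMIs in 9 and 10 in 4. Without the members carrying RNA of another class the ratio was 0.801, and without the 3 deepest cells of each library it was 1.13, so the lower sum rested on few deep cells.

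The pathway that CA3 is known to act on was thinly covered. Of 14 Hippo pathway genes measured, 5 were lower and none higher. All 14 ratios were below 1, against 4409 of 8181 over all genes, and 1 of the 14 had an interval below 1. The median log2 ratio was -0.37 against -0.04 over all genes. Yap1 had 44 and 22 UMIs (ratio 0.791, 0.451 to 1.35) and Wwtr1, which encodes TAZ, 56 and 30 (0.847, 0.525 to 1.34). The kinases Stk3 and Stk4 and their partner Sav1 had ratios of 0.550, 0.605 and 0.543, all with intervals that include 1, and Tead1, the factor that binds YAP1, had a ratio of 0.611 (0.384 to 0.95). Of 19 YAP/TAZ targets 1 was higher and 6 lower, with a summed ratio of 0.788 (0.703 to 0.882). Ankrd1 had 22 UMIs in 3 vehicle members and 1 in CA3, Ajuba 23 and 4 UMIs, Rbms3 30 and 7 and Igfbp3 34 and 10, the last in 2 members each. Without the members carrying RNA of another class the summed ratio of the targets was 0.939 (0.809 to 1.09), an interval that includes 1, and that of the Hippo genes was 0.776 (0.655 to 0.917).

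Of the 3848 genes with enough UMIs and cells to be named, 203 were higher (5.28%) and 329 lower (8.55%). Of the 12 higher genes by the bound nearest 1, those reported here were Ifi27l2a, Pigr, Fabp4, Cdkn1a, Krt18, MbmCerulean, Kcnq1ot1, Sulf2, Sigirr, Cyyr1 and Tmem213. Pigr, the receptor that carries polymeric antibodies across epithelia, had 57 UMIs in 20 vehicle members and 106 in 19 CA3 members (ratio 2.94, 2.11 to 4.13), against a ratio of 0.717 in proximal tubule cells. Kcnq1ot1, an imprinted nuclear RNA, was at 1.15 and 2.57 per 10000 (ratio 2.22, 1.71 to 2.90). MbmCerulean is a reporter sequence in the counting reference that the listed genotype does not name, and it had 32 and 56 UMIs. With cells thinned to 1000 non-mt UMIs the ratios of MbmCerulean and Sigirr were 0.678, against 2.77 and 2.99 unthinned. Both genes were at or below 1.01 per 10000, so thinning left few of their UMIs. No minimum count was set for thinned ratios, and no conclusion is drawn from them. Ifi27l2a, with 8 and 51 UMIs in 3 and 7 members, and Cyyr1 had ratios of 0.996 and 0.830 without the members carrying RNA of another class.

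Of the 12 lower genes, those reported here were Gbp2, Aqp1, Cryab, Fxyd4, Gbp7, Irgm1, Ptgds, Pcsk6, Atf3, Zfp36 and Ppp1r15a. Aqp1, a water channel of the thin limb and proximal tubule, had 263 UMIs in 18 vehicle members and 16 in 5 CA3 members (ratio 0.0962, 0.0542 to 0.159). The thin limb markers together were at 6.10 and 1.36 per 10000, with 3 of 3 measured lower. Slc14a2 and Bst1 of that list were at 0 in CA3. Pcsk6, a proprotein convertase, had 68 UMIs in 31 members and 8 in 5 (ratio 0.186, 0.0772 to 0.388). With each cell thinned to 1000 non-mt UMIs its ratio was 1.36, on few UMIs and with no minimum count. Ptgds, a prostaglandin D synthase, had 76 UMIs in 24 members and 9 in 6 (0.187, 0.0825 to 0.375). Ppp1r15a, which ends the integrated stress response, was at 3.02 and 1.07 (0.353, 0.262 to 0.470). Gbp2 had 169 UMIs in vehicle, 164 of them in 3 members, and 3 in CA3. Irgm1 had 89, of which 68 in 3 members, and 9 in CA3, and Gbp7 had 76, of which 56 in 3 members, and 7 in CA3. Each of these 3 genes is known to be induced by interferon, as is Ifi27l2a, which was higher in CA3 (8 and 51 UMIs, 45 of the latter in 3 members). Fxyd4, a principal cell gene, had a ratio of 1.11 without the members carrying RNA of another class, against 0.190 with them.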

How the data were processed

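Cells from mouse kidney were captured on a 10x Chromium instrument and 3′ libraries were sequenced on a NextSeq 500, per the labels' protocols. The authors deposited UMI counts for 31058 features in each barcode, made with Cell Ranger 3.0.1 on mm10 per the submitters' processing notes. Nothing further was normalized by the authors, as far as the sources used here state. The members, gene lists and tests were chosen with earlier results of these data known.

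Counts were summed over the members of each library and divided by the non-mt UMIs. Intervals of ratios were the exact conditional binomial interval, and those of shares the exact Clopper-Pearson interval, both 95% and for counting error only. Comparisons between cell groups used edgeR 4.0.16 (TMM, filterByExpr, glmQLFit, Benjamini-Hochberg), with DESeq2 1.42.0 as an alternative. The scripts were tested on simulated data. To be named for CA3, a gene needed 30 UMIs, 0.5 per 10000, 10% of cells in the higher library and 1.5 times, also without the 3 cells richest in the gene, ranked by the interval bound nearest 1, up to 12 each way. In edgeR comparisons, up to 10 each way were named by fold, with 0.5 per 10000 in the higher group, and of lists any thick ascending limb gene or the 4 largest ratios. The Cldn10 split, the Malat1 limit and the class filter were added after the data were seen. Whether replicate samples came from separate animals is not given in the sources used here. Some genes and 1 motif are not reported here.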

Additional observations from a re-analysis of the deposited data

How the results depend on the processing

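With 1 library per group, no leave-one-out check of CA3 against vehicle exists, and leaving a library out of the edgeR fits leaves no residual degrees of freedom. No paired analysis was possible because each of vehicle and CA3 held 1 library. In the fits between cell groups the library was the block. Without the replicate block, 4 genes were higher and 43 lower above 50% mt- UMIs, and 7 higher and 7 lower with Cldn10. With the block, the p-values rest on 2 libraries of different treatment and measure only how far the difference between cell groups varied between them.

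The members' share was 3.26% and 2.70% without cells carrying RNA of another class. With each cell thinned to 1000 non-mt UMIs, 122 genes were at least 1.5 times higher in CA3 and 166 lower, since fewer genes were then measured, and with each cell weighted equally 1154 were higher. Thinning put MbmCerulean and Sigirr at 0.678 and Pcsk6 at 1.36, each on few UMIs and with no minimum count. Without cells carrying RNA of another class Ifi27l2a was at 0.996, Cyyr1 at 0.830 and Fxyd4 at 1.11, and without the 3 deepest cells of each library the inflammatory sum was at 1.13. Over 33 named values and 15 alternatives, 405 of 488 values stayed inside the counting interval, 76 left it in the same direction and 7 reversed. The thinned ratios above are among the values that reversed.

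For the split by mt- UMIs, 0 genes were higher with no filter on low counts, 9 higher and 70 lower with the split at 40%, 0 higher and 0 lower with the split at 60%, 3 lower with DESeq2, 15 lower with Slc34a1 and Lrp2 below 10 or without cells carrying RNA of another class, and 0 higher and 0 lower within the low Malat1 set. Fos, Jun and Xist were called in the other 7 fits, all but the 60% split and the low Malat1 set. Against the distal convoluted tubule, 61 were higher and 66 lower with DESeq2, and 228 and 164 at a mitochondrial limit of 50%. With against without Cldn10, 8 were higher and 8 lower with DESeq2, 5 and 8 with at least 3000 non-mt UMIs, and 18 and 18 without cells carrying RNA of another class. The causes were not tested.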
